A study of Oryctolagus cuniculus with 8 samples.

Results

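The cluster of miR-183, miR-96 and miR-182 was followed through extracellular vesicles, the membrane particles that cells shed into fluids, from the oviducts and uteri of rabbits. All rows of the deposited table named for the precursors miR-183, miR-96 and miR-182 were taken, which gave 6 mature names (both arms of 3 precursors) of 579 in the table. Of the 6, 5 had at least 1 read and 3 passed the filter on low counts, the 5p arms ocu-miR-183-5p, ocu-miR-96-5p and ocu-miR-182-5p. The remaining 3 were the 3p arms. The prefix ocu, for the rabbit, is left out of names below.

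The animals were 21 wild-type California x New Zealand white does. All had received 25 IU of eCG, a gonadotropin that drives follicle growth, then, after 48 h, a GnRH analogue (20 µg) that triggers ovulation, and were sampled at 14 to 15 h after the latter. The oviductal group was 5 libraries, each from a pool of 3 animals, and the uterine group was 3 libraries (replicates 12, 3 and 4), each from a pool of 5 animals per the labels. The uterine library titled 12 is named as number 1 elsewhere in the labels. Its pool size would be different if it combined replicates, which is unknown here. All does had been treated alike. The groups differed in organ, in pool size and in the volume of the flush, 1 mL for an oviduct and 2.2 mL for a uterus, and these cannot be told apart. The pools add up to 30 animals from 21 does, which means that pools shared some animals, and p-values measure the spread between pools that may not be independent. The depth was 42684 to 569087 miRNA reads for oviductal and 232546 to 479865 for uterine libraries. Oviductal replicates 2 and 3 were the shallowest, at 47598 and 42684 reads. No vesicle marker could be checked, since the table holds miRNAs alone, and lower release of vesicles by a cell type cannot be told apart from less of a miRNA in each vesicle.

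The members of this cluster are cut from a shared primary transcript and are conserved across animals. They are best known from sensory epithelia, such as the hair cells of the inner ear and the photoreceptors of the retina, where mutation of the miR-96 seed causes hearing loss, and they are also made in other epithelia and in many carcinomas. The seeds of miR-96 and miR-182 are closely alike and both miRNAs are known to repress FOXO1, a transcription factor of the endometrium, while miR-183 has a related but distinct seed and is known to repress ezrin and integrin beta 1. In the RefSeq annotation of the rabbit assembly mOryCun1.1, MIR182, MIR96 and MIR183 follow each other with no other annotated gene between them, and the nearest protein-coding genes on either side are NRF1 and UBE2H.

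Nearly all reads of the cluster came from the 5p arms. The precursor of miR-183 gave 3873 reads of the 5p and 2 of the 3p arm over the 8 libraries, that of miR-182 gave 3494 and 1, and that of miR-96 gave 816 and 0. The 2 reads of miR-183-3p lay in uterine replicate 4 and the read of miR-182-3p in oviductal replicate 5. The 5p share was thus 99.9% for miR-183 with a lower limit of 99.8%, an exact binomial 95% limit of counting error only. For miR-96, with all 816 reads from the 5p arm, the same lower limit was 99.5%. The 5p to 3p ratio could be fitted with limma for miR-183 and miR-182 among 71 precursors. The log2 ratio differed between uterine and oviductal vesicles by -1.56 ± 1.07 (SE, adjusted p = 0.709) and -0.53 ± 1.06 (adjusted p = 0.905), and none of the 71 precursors (0%) passed. With so few 3p reads these values depend mainly on the number of 5p reads, and no arm switch was detectable at this depth.

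All 3 leading members were at lower levels in the uterine libraries than in the oviductal ones, and miR-96-5p differed most. The mean level of miR-96-5p in read counts per 1000000 miRNA reads (CPM) was 16.3-fold higher in oviductal vesicles, against 3.90-fold for miR-183-5p and 3.76-fold for miR-182-5p. These folds are scaled by library totals alone, while the log2 fold changes below use the TMM factors of edgeR, which made the differences smaller. None of the 3 passed edgeR's quasi-likelihood test across all 178 tested miRNAs at an adjusted p of 0.05.

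The member miR-96-5p, in which seed mutations cause progressive hearing loss, was present at 347, 861, 375, 723 and 668 CPM in oviductal replicates 1 to 5. It was at 43.0 CPM in uterine replicate 12 and 66.7 CPM in uterine replicate 3, from 10 and 32 reads. Uterine replicate 4 had 0 reads among 291328. Its floor of 3 reads was 10.3 CPM, and the exact binomial 95% upper limit was 12.7 CPM. The lowest oviductal library was therefore 5.20-fold above the highest uterine one in CPM, and 33.7-fold above the floor of uterine replicate 4. With the TMM factors of edgeR the margin was smaller. The lowest oviductal value of miR-96-5p was then 291 and the highest uterine value 100 scaled CPM. The 2 groups did not overlap, and even the oviductal libraries with few reads of it (16 in replicate 3 and 41 in replicate 2) had exact binomial 95% intervals, of 214 to 609 and 618 to 1168 CPM, that lay above the uterine intervals. The log2 fold change was -3.35 ± 1.07 (SE), with an edgeR adjusted p of 0.107, the smallest p of any miRNA that was lower in uterine vesicles. DESeq2 placed it past the threshold, with an adjusted p of 0.0110. Over 19 alternative settings the adjusted p ranged from 0.0110 to 0.871 and 3 settings passed, while the log2 fold change was negative in all 19, at -4.83 to -2.71. Without uterine replicate 4, the library with no read, it was -2.71 ± 0.83 (SE).

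The member miR-183-5p was at 1300, 5883, 6560, 2471 and 2077 CPM in oviductal replicates 1 to 5. Its level was 804, 829 and 1177 CPM in uterine replicates 12, 3 and 4. The uterine values lay close together and below every oviductal value, but the margin between uterine replicate 4 and oviductal replicate 1 was small. The log2 fold change was -1.49 ± 0.54 (SE), with an edgeR adjusted p of 0.163 and a range of 0.0542 to 0.998 over 20 alternatives, none of which passed.

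The member miR-182-5p, whose targets include FOXO transcription factors, was at 1567, 4874, 6771, 1940 and 1467 CPM in oviductal replicates 1 to 5. Its level was 383, 1075 and 1191 CPM in uterine replicates 12, 3 and 4. Uterine replicate 12 was the lowest by a wide margin, in contrast to miR-183-5p. On the CPM scale the groups did not overlap, but with the TMM factors of edgeR uterine replicate 3, at 1615 scaled CPM, lay above oviductal replicate 5, at 1327. The log2 fold change was -1.44 ± 0.59 (SE), with an edgeR adjusted p of 0.188 and a range of 0.0407 to 0.998 over 20 alternatives. Only the fit without uterine replicate 3 passed, at -2.09 ± 0.68 (SE).

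**Figure D1:**
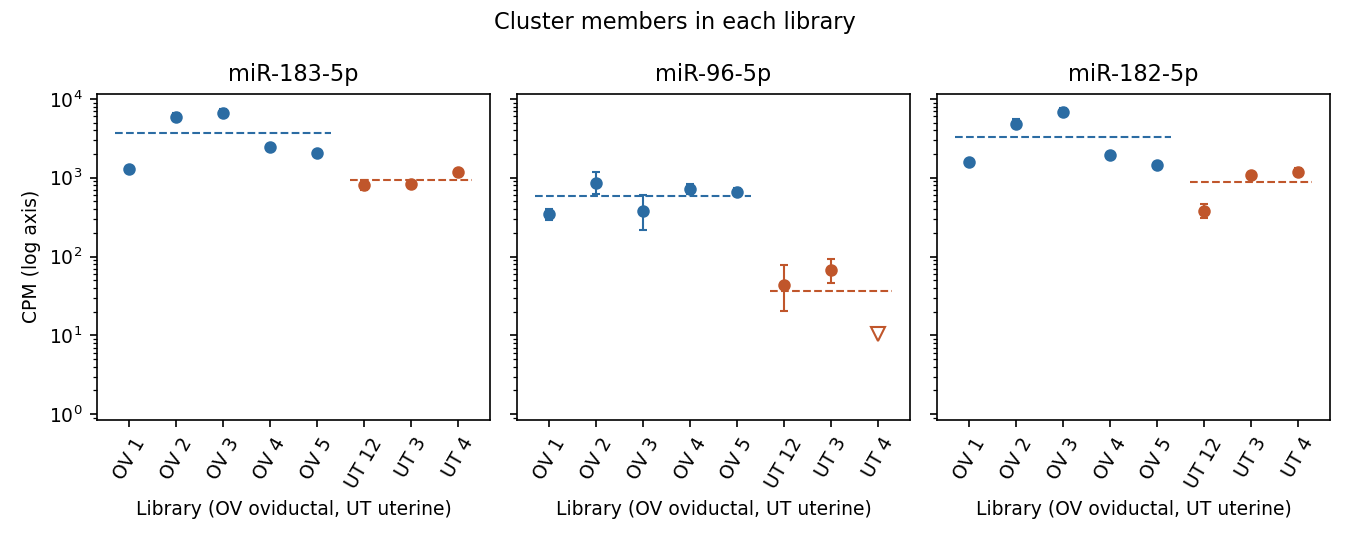
Level of miR-183-5p, miR-96-5p and miR-182-5p in CPM (log axis) in each of the 5 oviductal (OV) and 3 uterine (UT) libraries, with exact binomial 95% intervals from counting error only. Dashed lines are group means, and the open triangle is the floor of 3 reads in uterine replicate 4, which had 0 reads of miR-96-5p. The uterine points of miR-96-5p lie at or below 66.7 CPM and its oviductal points at or above 347 CPM.

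These differences were read against those of all tested miRNAs. Of the 178, edgeR called 0 lower in uterine vesicles (0%) and limma-voom called 0 (0%), while DESeq2 called 2 of 175 (1.14%), miR-96-5p among them. With no filter edgeR called 1 of 354 lower (0.282%), which was miR-96-5p, and without uterine replicate 3 it called 15 of 200 (7.5%), which held miR-96-5p and miR-182-5p. That library was the uterine one with the most epithelial miRNAs and the fewest muscle miRNAs, and the differences of all 3 members were larger without it. Without uterine replicate 12 the log2 fold changes of miR-183-5p and miR-96-5p were also larger in size, at -1.57 and -3.49. That of miR-182-5p was smaller, at -1.19. A link to epithelial or muscle miRNAs was not tested. At an unadjusted p under 0.05, 10 of the 178 were lower (5.62%), and the 3 members were among those 10. Every uterine library was below every oviductal one on the CPM scale for 10.1% of the tested miRNAs, and for the 3 members that were tested. With TMM scaling this held for 5.62% of the miRNAs and for miR-183-5p and miR-96-5p. The median log2 fold change was -1.49 over the 3 tested members and -0.02 over all tested miRNAs. Scaled by library totals alone, the median of all miRNAs moved to -0.31, and relative to that median the members were at -1.65, -3.69 and -1.60 for miR-183-5p, miR-96-5p and miR-182-5p, against -1.47, -3.33 and -1.41 with TMM. With upper-quartile factors the median was 0.19 and the relative values were -1.51, -3.38 and -1.46. Other settings gave smaller relative values for miR-183-5p and miR-182-5p. With limma-voom the median was -0.40 and the relative values of the 3 members, in the same order, were -0.79, -4.43 and -0.79. Without uterine replicate 4 the median was -0.40 and they were -0.97, -2.32 and -0.97. Without oviductal replicates 2 and 3 they were -0.73, -3.35 and -0.60.

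The oviductal levels of miR-183-5p and miR-182-5p were uneven in a way that those of miR-96-5p were not. The 2 shallow libraries, oviductal replicates 2 and 3, held on average 3.19-fold more miR-183-5p and 3.51-fold more miR-182-5p than oviductal replicates 1, 4 and 5, but 1.07-fold more miR-96-5p. The value for miR-96-5p averages unlike libraries with few reads, at 861 CPM (41 reads) in replicate 2 and 375 CPM (16 reads) in replicate 3. In those 3 deeper libraries miR-183-5p averaged 1949 ± 596 CPM (SD, n = 3), against 937 ± 209 in uterine vesicles (SD, n = 3). For miR-182-5p the values were 1658 ± 249 and 883 ± 437 CPM, and for miR-96-5p they were 579 ± 203 and 36.6 ± 33.8 CPM. Without the 2 shallow libraries the log2 fold changes of miR-183-5p and miR-182-5p shrank to -0.71 ± 0.56 and -0.59 ± 0.62 (SE; edgeR adjusted p = 0.825 for both). That of miR-96-5p was -3.33 ± 1.27 (SE), with an edgeR adjusted p of 0.295 where 0 of 170 tested miRNAs passed (0%). The size of the difference in miR-183-5p and miR-182-5p thus rested largely on the 2 shallow oviductal libraries, and that in miR-96-5p did not.

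**Figure D2:**
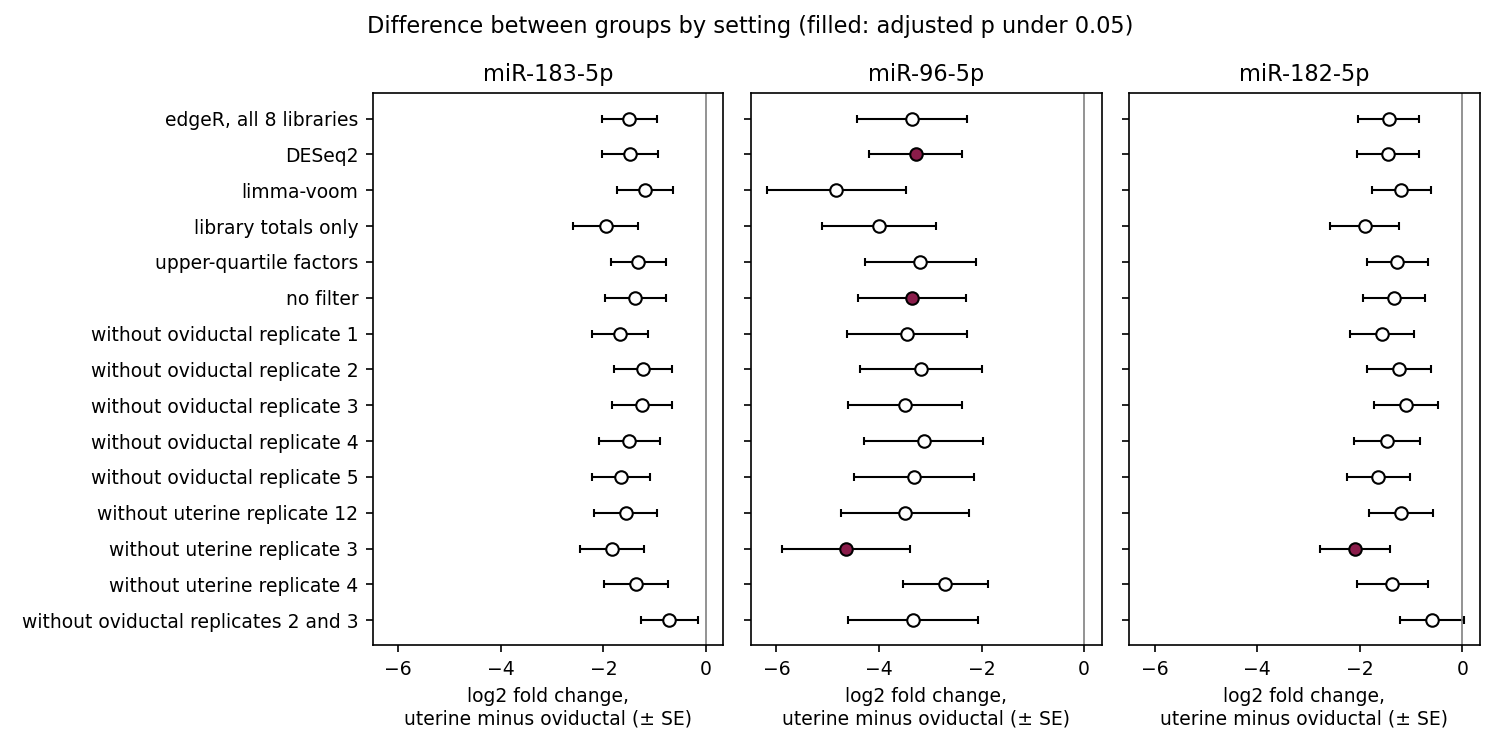
Log2 fold change of each member, uterine minus oviductal, with its standard error, under edgeR with all 8 libraries, other tools and scalings, and with libraries left out; filled points have an adjusted p under 0.05. All points are below 0, and those of miR-183-5p and miR-182-5p move closest to 0, to -0.71 and -0.59, without oviductal replicates 2 and 3.

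Taken as a whole, the cluster made up 0.321%, 1.16%, 1.37%, 0.513% and 0.421% of miRNA reads in oviductal replicates 1 to 5. In uterine replicates 12, 3 and 4 it made up 0.123%, 0.197% and 0.238%. The highest uterine share was below the lowest oviductal share, with exact binomial 95% intervals of 0.220% to 0.256% and 0.305% to 0.339% for those libraries. Within the ranking of each library miR-183-5p stood between place 23 and 49 in oviductal and between 51 and 56 in uterine vesicles. The ranks of miR-182-5p overlapped, at 22 to 50 and 44 to 70, and those of miR-96-5p lay between 57 and 88 in oviductal vesicles and at 123 and 118 in the uterine libraries that had it.

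The make-up of the cluster also varied. In oviductal replicates 1 to 5, miR-96-5p was 10.8%, 7.41%, 2.74%, 14.1% and 15.8% of the cluster's reads. In uterine replicates 12, 3 and 4 it was 3.50%, 3.38% and 0%. The last is 0 of 692 reads, with an exact binomial 95% upper limit of 0.532%. The groups overlapped through oviductal replicate 3. The other two members took the rest, with miR-183-5p at 40.5% to 50.6% in oviductal vesicles and at 65.4%, 42.1% and 49.6% in uterine replicates 12, 3 and 4. Uterine replicate 12 had the highest share of miR-183-5p, with 210 reads of it per 100 reads of miR-182-5p, against 77.1 and 98.8 in uterine replicates 3 and 4 and 82.9 to 142 in the oviductal libraries.

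**Figure D3:**
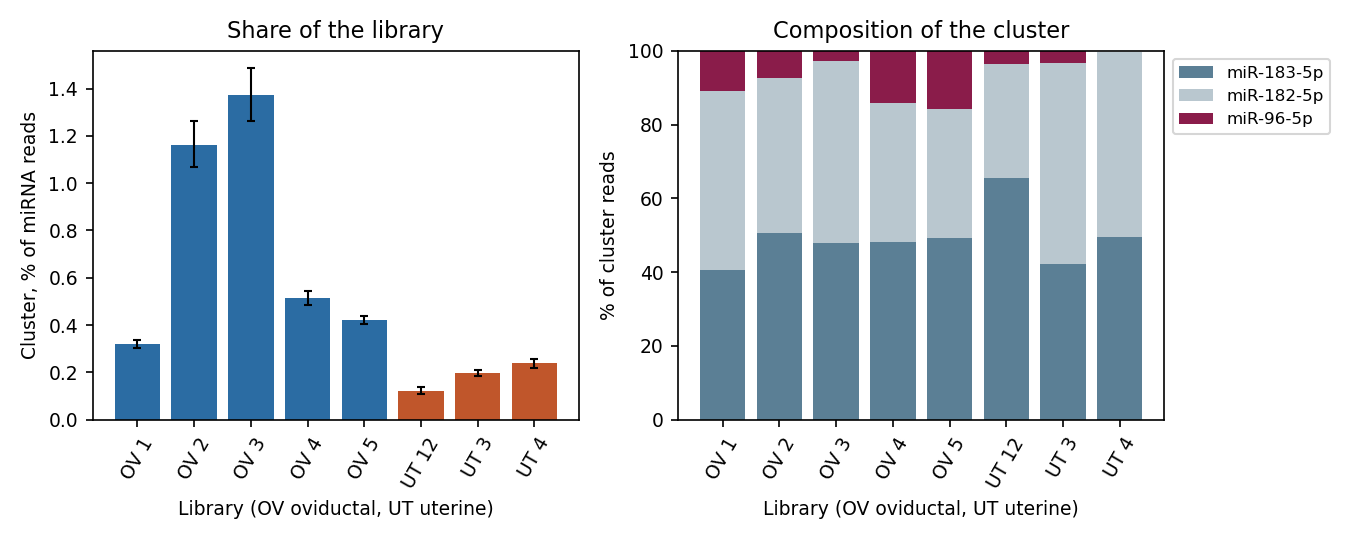
Left, share of all miRNA reads taken by the cluster in each library (%), with exact binomial 95% intervals; right, share of each leading member among the cluster's reads (%). The uterine libraries lie at 0.123% to 0.238% of reads against 0.321% to 1.37% in the oviductal ones, and the part of miR-96-5p is at most 3.50% in uterine and 2.74% to 15.8% in oviductal libraries.

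Ratios between members do not depend on the scaling of the library, and the 3 ratios were compared with exact two-sided permutation tests, in which 5 against 3 libraries allow a smallest p of 0.0357. The log2 ratio of miR-96-5p to miR-183-5p averaged -5.73 ± 3.21 in uterine (SD, n = 3) and -2.43 ± 1.02 in oviductal vesicles (SD, n = 5). The difference of -3.30 had an exact permutation p of 0.0714, or 0.161 when adjusted over the 3 ratios. The log2 ratio of miR-96-5p to miR-182-5p differed by -3.24 (exact permutation p = 0.107, adjusted 0.161). Full separation of both ratios of miR-96-5p, with the third ratio alike in the groups, would give an adjusted p of 0.0536, so this test could not have passed for them alone. Both differences were smaller without uterine replicate 4, at -1.46 and -1.27 (exact permutation, adjusted p = 0.429 for both), and both depended on the pseudocount of 0.5 reads added to its 0 reads. The ratio of miR-183-5p to miR-182-5p differed by 0.06 (exact permutation p = 0.857).

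The members were also set against miR-200c-3p, the most abundant epithelial miRNA of the lists, which holds epithelial cells in their state by repressing ZEB1 and ZEB2. It was at 33455 to 49781 CPM in oviductal and 4287, 22631 and 12869 CPM in uterine replicates 12, 3 and 4. For every 100 reads of miR-200c-3p there were 2.61 to 19.6 reads of miR-183-5p in the oviductal and 18.8, 3.66 and 9.15 in the uterine libraries, which overlapped fully. The log2 ratio of miR-183-5p to miR-200c-3p differed between the groups by 0.14 and that of miR-182-5p by 0.08 (exact permutation, adjusted p = 0.929 for both). Without the 2 shallow libraries, oviductal replicates 2 and 3, these differences rose to 0.95 and 0.91. With so few libraries left the permutation test cannot pass. The small differences over all 8 libraries thus depended on the shallow ones. That of miR-96-5p differed by -3.16, with an exact permutation p of 0.0714 and an adjusted p of 0.214. Without uterine replicate 4 that difference was -1.36 (exact permutation, adjusted p = 0.571). Had the ratio of miR-96-5p alone separated the groups fully, its adjusted p would have been 0.107, so this test could not have passed for it alone.

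Marker lists of the cells that line or surround the tract were measured in the same libraries. The miR-200 family took 3.39% to 5.09% of oviductal and 0.470% to 2.36% of uterine reads, with 1 positive and 2 negative log2 fold changes among its 3 tested members, none past the threshold, and miR-141-3p at 0.30. The list of other epithelial miRNAs took 0.989% to 2.87% and 0.538% to 0.840%, with 1 positive and 2 negative among 3 tested members. The positive one, miR-184-3p, had the largest log2 fold change of these 3, at 4.39, against -1.31 for miR-375-3p and -2.24 for miR-205-5p. The miR-34 and miR-449 list of multiciliated cells took 2.77% to 6.14% and 0.496% to 3.39%, which overlapped, with 1 positive and 5 negative among 6 tested members and a median of -0.28. No member of these 2 lists passed the threshold. Muscle miRNAs, led by miR-143-3p, took 0.388% to 0.477% of oviductal and 0.569% to 4.69% of uterine reads, with 5 of 5 tested members positive and 1 past the threshold. Of all 178 tested miRNAs 3 passed in edgeR, each of them higher in uterine vesicles. The list of neural and sensory miRNAs, led by miR-7a-5p and miR-204-5p, took 2.02% to 3.62% and 0.808% to 1.78%, with 1 positive and 7 negative among 8 tested members and none past the threshold. Among blood miRNAs 2 of 2 tested erythrocyte and 4 of 4 tested leukocyte members had positive values, as did the liver miRNA miR-122-5p at 2.79, and none passed the threshold. The erythrocyte list took 0.0922% to 0.288% of oviductal and 0.123% to 0.768% of uterine reads, and the leukocyte list 0.102% to 0.245% and 0.0786% to 0.367%. Their part in the lower level of the cluster was not tested.

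Across the 8 libraries miR-183-5p and miR-182-5p followed each other closely, with Pearson's r = 0.932 and Spearman's rho = 0.976 of log2(CPM + 1). Between miR-96-5p and miR-183-5p r was 0.571 and rho 0.786, and between miR-96-5p and miR-182-5p they were 0.489 and 0.738. These coefficients describe 8 libraries that differ in organ and depth, and they carry no test.

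The 5 miRNAs whose profiles were most like the mean of the leading members, among 175 compared over the 8 libraries, were miR-7a-5p (r = 0.951), miR-672-5p (0.875), miR-129-5p (0.858), miR-375-3p (0.855) and miR-129-3p (0.839). The mean profile is pulled by the 0 reads of miR-96-5p in uterine replicate 4, and the 5 did not follow each member equally. The neuroendocrine and epithelial miRNA miR-375-3p had r = 0.932 with miR-183-5p and 0.967 with miR-182-5p, but 0.594 with miR-96-5p. It was at 7479, 20631, 25841, 15362 and 7027 CPM in oviductal replicates 1 to 5 and at 2520, 5614 and 5128 CPM in uterine replicates 12, 3 and 4, and so was also highest in the 2 shallow oviductal libraries. In contrast miR-7a-5p, a miRNA of neurons and endocrine cells, had r = 0.964 with miR-96-5p, and 0.669 and 0.638 with miR-183-5p and miR-182-5p. It was at 12244 to 21135 CPM in oviductal vesicles and at 5173, 9444 and 2125 CPM in uterine replicates 12, 3 and 4, lowest in the library that had no read of miR-96-5p. Of the 5 miRNAs, 2 were also among the nearest 5 by Spearman's rho.

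**Figure D4:**
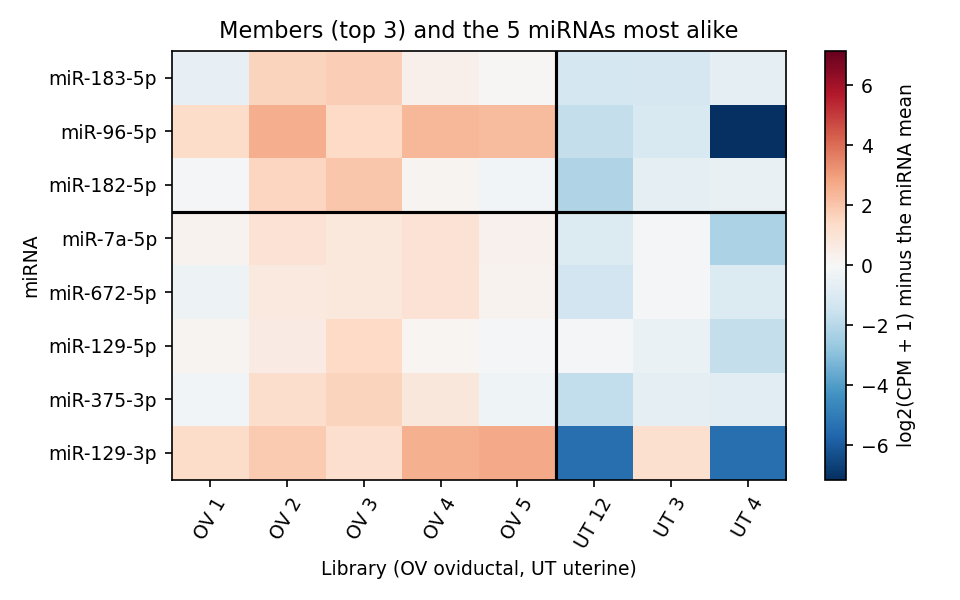
Heat map of log2(CPM + 1) minus the mean of each miRNA over the 8 libraries, for the 3 leading members (above the line) and the 5 miRNAs most alike to their mean, with oviductal (OV) libraries left and uterine (UT) libraries right of the vertical line. The darkest blue cell is miR-96-5p in uterine replicate 4, with 0 reads, and miR-375-3p is highest in the same oviductal libraries (2 and 3) as miR-183-5p and miR-182-5p.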

How the data were processed

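Small RNA of vesicles from flushed oviducts and uteri, isolated by size exclusion, was sequenced. The authors deposited whole-number counts for each miRNA with its precursor, and RPM, which equal those counts over the column sum. OryCun2.0 and FastQC are named in the submitters' processing notes. Aligner and counter: not given in the sources used here. Each of 579 names kept its row of highest read total. CPM were computed over these rows, without TMM. Counts were tested with edgeR 4.0.16 (quasi-likelihood, robust, TMM, filterByExpr, Benjamini-Hochberg over 178 miRNAs), with DESeq2 1.42.0 and limma-voom 3.58.1 as alternatives. Standard errors were the log2 fold change over the root of F. Ratios used a pseudocount of 0.5 reads and exact permutation, and arm ratios limma over precursors that had 10 reads or more from their arms together in each library. In 10 simulations of uterine against oviductal over 178 miRNAs, edgeR found 21.3% of 4-fold changes and 70.8% of 16-fold ones. Of the miRNAs it called in these simulations, 4.35% were false calls. Intervals and floors cover counting error only. The members, the marker lists and the tests were chosen with earlier results of these data known. Named were all members, the 5 most alike miRNAs and the most abundant of each marker list, reduced in the text after the values were seen. Mature sequences were not used here, so no miRNA was named by its seed.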

Additional observations from a re-analysis of the deposited data

Results flagged for a closer look

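The share of miR-183-5p among the reads of the cluster was 40.5% in oviductal replicate 1, apart from the 47.9% to 50.6% of the other oviductal libraries. Of 13 sets of 5 oviductal values examined in this way, 1 had a library set apart like this, and chance gives about 1 in 20.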

How the results depend on the processing

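The log2 fold changes of the 3 leading members were negative under every alternative that could be fitted. miR-96-5p passed the threshold in 3, at -3.35 with no filter, -3.28 with DESeq2 and -4.65 without uterine replicate 3. miR-182-5p passed in 1, at -2.09 without uterine replicate 3. With 10 reads required in every library miR-96-5p was not tested. Leaving out 1 library at a time, the values were -4.65 to -2.71 for miR-96-5p, -1.83 to -1.23 for miR-183-5p and -2.09 to -1.10 for miR-182-5p. The number of miRNAs past the threshold was 3, and 6 with upper-quartile factors, 1 with library totals only, 13 with no filter, 8 with 10 reads in every library, 11 by DESeq2, 1 by limma-voom, 7 with repeated rows summed, 0 without both shallow libraries (edgeR, 20 at an unadjusted p under 0.05) and 1 to 27 without each library in turn; the cause was not tested. Without 1 library the ratio of miR-183-5p to miR-182-5p differed by -0.36 to 0.36, those of miR-183-5p and miR-182-5p to miR-200c-3p by -0.42 to 0.76 and -0.21 to 0.47, that of miR-96-5p to miR-182-5p by -4.45 to -1.27, to miR-183-5p by -4.36 to -1.46 and to miR-200c-3p by -4.51 to -1.36. With any 1 library left out, of either group, these permutation tests cannot pass. With a pseudocount of 5 reads the first 2 of the miR-96-5p ratios differed by -2.03 and -2.09. The arm ratio of miR-182 differed by -1.05 to 0.22. Of the 5 most alike miRNAs, 2 were shared with Spearman's rho and 3 with a pseudocount of 10 CPM.

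Groups share the numbers 1, 3 and 4 in the library names, and 3 and 4 in the titles. The labels do not state that these numbers pair pools, so they were not taken as pairs. Deviations from the group means correlated at 0.02, -0.38 and 0.12 for the same-numbered libraries. Libraries with different numbers gave -0.29 to 0.30. With 3 uterine libraries these values cannot decide whether pools were paired. With a replicate block by library number miR-183-5p, miR-96-5p and miR-182-5p were at -1.27, -3.63 and -1.48 and 0 miRNAs passed in edgeR (11 at an unadjusted p under 0.05), and by title number at -1.70, -4.66 and -1.35, also with 0 (8 unadjusted). Only numbers that both groups share inform these fits, 3 by library name and 2 by title. With so few pairs, the lack of passing miRNAs says little about pairing. The replicate block gave ratio differences of 0.21 for miR-183-5p to miR-182-5p, -2.93 and -3.15 for miR-96-5p to miR-182-5p and to miR-183-5p, and 0.28, -2.86 and 0.07 for miR-183-5p, miR-96-5p and miR-182-5p to miR-200c-3p. The same block gave arm ratio differences of -1.43 for miR-183 and -0.88 for miR-182. Depth limits miR-96-5p most, at 0 to 32 reads in the uterine libraries.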
